A study of Mus musculus with 8 samples.

Results

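The collagen chains other than those of type IV were examined in mouse lens fiber cells (FC), the elongated cells that make up most of the lens. The members were all protein-coding genes of the deposited expression table whose symbol is that of a collagen chain, leaving out Col4a1 to Col4a6. This gave 38 genes out of 35275 listed. Their values are FPKM, the fragments counted on a gene scaled to its length and to all mapped fragments of the library. This accounts for gene length and library depth alone, and other scalings were run as alternatives.

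The mice were C57BL/6 by the labels, and C57BL/6J by the methods of the study. The CS-exposed group were pups whose mothers entered a whole-body chamber with cigarette smoke (CS) late in pregnancy, a few days before the birth. The pups were exposed for 3.5 months, on 5 days of the week and for 5 hours a day. Age-matched untreated control (Ct) mice were housed without smoke over the same time. Each group has 4 libraries, and each library is a pool of FC from the right eyes of 4 mice. FC were lifted from the epithelium with forceps, pools of males and of females were both made, and the labels do not say which library is of which sex.

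Collagens are proteins of 3 chains wound into a triple helix. Fibrillar collagens such as types I, II, III, V and XI build the fibers of tendon, cartilage, cornea and vitreous, FACIT collagens sit on the surface of those fibers, and type VI collagen forms beaded filaments that link cells and basement membranes to the matrix. The lens is wrapped in a capsule, a thick basement membrane built on type IV collagen, and has no blood vessels and no stroma of its own. A cell that secretes collagen also needs prolyl and lysyl hydroxylases, the chaperone Serpinh1, export factors and proteases that trim the chains.

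Of the 38 collagens, 2 reached a group mean of 1 FPKM, the level at which the study counted a gene as expressed. These were Col6a3, the alpha 3 chain of type VI collagen, in both groups, and Col16a1, a FACIT-like chain, in untreated Ct mice alone. A further 10 had a group mean of at least 0.2 FPKM, 24 had reads but lay under 0.2 FPKM in both groups, and 2 were listed at 0 in every library. Reads were found in all 8 libraries for 17 of the collagens and in 1 to 7 libraries for 19. The plot of all 38 genes by structural class shows Col6a3 alone well above the 1 FPKM line.

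**Figure D1:**
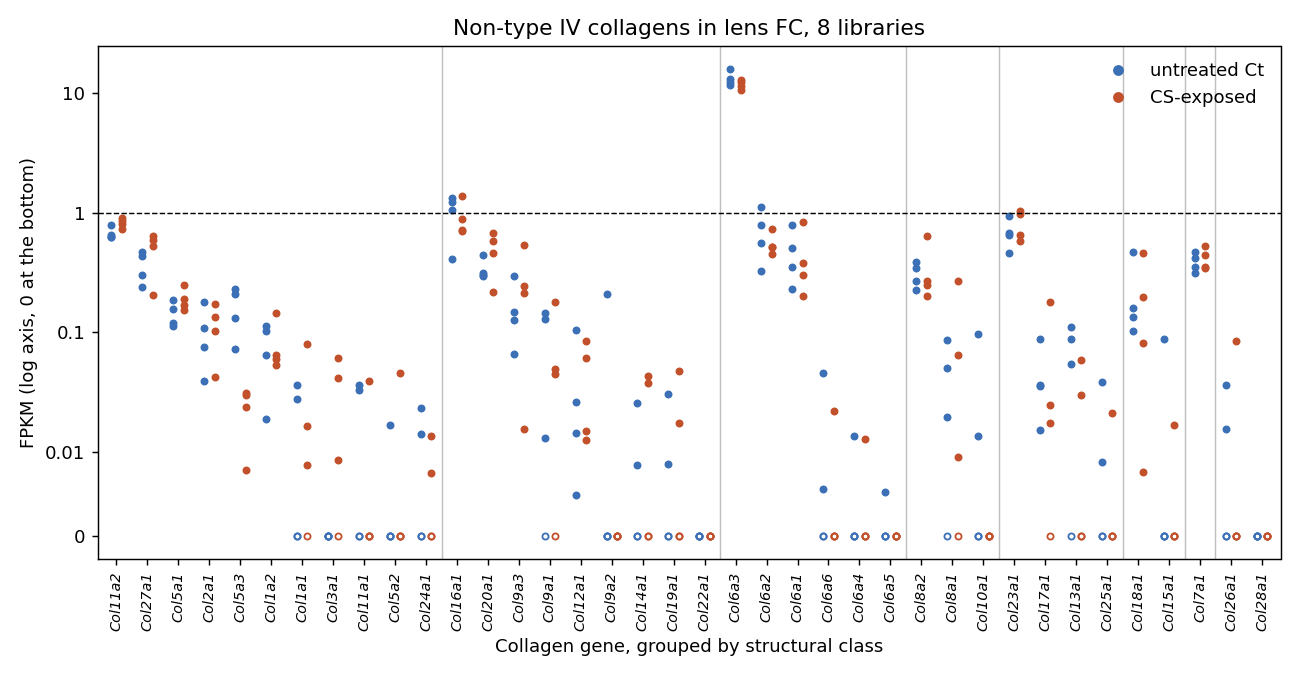
FPKM of the 38 non-type IV collagens on a log axis, grouped by structural class between grey lines (fibrillar, FACIT, type VI, short-chain network, transmembrane, multiplexin, anchoring fibril, other). Each point is a library, open points at the bottom are libraries at 0, and the dashed line marks 1 FPKM. Col6a3 lies between 10.8 and 15.9 FPKM, and no other member exceeds 1.39 FPKM in any library.

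Summed over the 38 genes, the libraries held 16.2, 19.8, 22.9 and 19.6 FPKM in untreated Ct mice and 16.6, 18.4, 20.9 and 17.9 FPKM in CS-exposed mice. The groups overlapped. Col6a3 made up between 59.1% and 72.8% of this sum, with a median of 65.8% over the 8 libraries. The 6 type IV chains summed to between 237 and 362 FPKM, which was 12.9 to 15.8 times the sum of all other collagens in the same library.

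The libraries were estimated to hold between 18100000 and 23300000 fragments. The estimate used the steps of the FPKM values together with GENCODE transcript lengths, and 4582 of the 7093 genes compared gave the same depth. At this depth Col6a3 rested on 2283 to 3734 reads in a library and Col16a1 on 43 to 150. The fiber cell markers fixed for the check were present, and all 7 of them were above the 1 FPKM minimum. Their summed level was 149100 to 155700 FPKM in untreated Ct mice and 144500 to 153800 FPKM in CS-exposed mice. Markers of other cells were present in places. The 9 lens epithelium markers summed to between 347 and 413 FPKM in untreated Ct mice and between 340 and 379 FPKM in CS-exposed mice, none was at 0, and 7 of the 9 had their highest value in Ct replicate 3. Wnt7b, at a mean of 198 FPKM in untreated Ct mice and 197 FPKM in CS-exposed mice, was the largest part of these sums. In limma 1 of the 9, Npnt, had an unadjusted p under 0.05 (log2 fold change -0.47, adjusted p = 0.956), and the median of the 9 was -0.13. The 9 rod photoreceptor markers summed to between 10.4 and 27.1 FPKM in untreated Ct mice and between 30.7 and 85.4 FPKM in CS-exposed mice, none was at 0 throughout, and all 9 were highest in CS replicate 3.

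In bulk tissue, fewer cells of a type and less RNA per cell cannot be told apart. Of the 8 markers of stromal fibroblasts and keratocytes, Dpt and Twist2 were listed at 0 in every library. Kera, Lum, Dcn and Pi16 stayed under 0.31 FPKM, while Ogn lay between 76.3 and 88.5 FPKM and Pdgfrb between 12.1 and 14.6 FPKM. The summed level of the list was 88.8 to 94.0 FPKM in untreated Ct mice and 92.1 to 103 FPKM in CS-exposed mice. Endothelial markers summed to less than 0.5 FPKM in every library, and ciliary epithelium markers to less than 0.83 FPKM. The 6 macrophage and blood markers summed to between 0.284 and 2.07 FPKM in untreated Ct mice and between 0.630 and 20.6 FPKM in CS-exposed mice. The upper value is that of CS replicate 4, which stood apart through the hemoglobin genes Hba-a1 (9.46 FPKM) and Hbb-bs (11.1 FPKM), while the macrophage markers Ptprc, Csf1r, Cd68 and C1qa stayed at or under 0.594 FPKM in every library.

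Type VI collagen carried most of the non-type IV collagen message. The molecule is assembled from an alpha 1, an alpha 2 and an alpha 3 chain, and the genes Col6a4, Col6a5 and Col6a6 encode chains that can stand in for alpha 3. Col6a3 lies on the minus strand of chromosome 1, at chr1:90765923-90843971 of GRCm38, and Col6a1 (chr10:76708792-76726168) and Col6a2 (chr10:76595762-76623630) lie next to each other in the same orientation on chromosome 10. To show the regions from which the 3 chains are read, the 250 bases before the start that RefSeq gives each gene on GRCm38.p6 are printed 5′ to 3′ on the strand of the gene, with capitals for matches to the motifs searched.
Col6a3, chr1:90843972-90844221: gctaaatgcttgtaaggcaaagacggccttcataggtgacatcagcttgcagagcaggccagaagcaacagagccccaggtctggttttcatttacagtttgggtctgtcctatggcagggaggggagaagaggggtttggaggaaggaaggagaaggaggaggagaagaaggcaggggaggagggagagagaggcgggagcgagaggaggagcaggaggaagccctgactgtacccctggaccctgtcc
Col6a1, chr10:76726045-76726294: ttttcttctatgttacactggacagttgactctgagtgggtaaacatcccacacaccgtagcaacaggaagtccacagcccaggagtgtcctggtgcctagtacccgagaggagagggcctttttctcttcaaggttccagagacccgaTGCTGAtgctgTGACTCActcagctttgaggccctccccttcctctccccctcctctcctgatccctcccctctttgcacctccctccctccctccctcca
Col6a2, chr10:76623631-76623880: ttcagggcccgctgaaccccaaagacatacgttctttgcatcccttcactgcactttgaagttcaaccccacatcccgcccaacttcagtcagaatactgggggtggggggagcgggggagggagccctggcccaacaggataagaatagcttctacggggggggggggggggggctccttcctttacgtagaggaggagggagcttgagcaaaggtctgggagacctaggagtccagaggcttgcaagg

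Searched on both strands were TGCTGA (the core bound by MAF factors, which include lens regulators), TGACTCA (AP-1), TATAAA and CCAAT. These letters stand in 16.1%, 4.46%, 12.4% and 33.8% of 32851 RefSeq windows of the same length. The Col6a1 window held TGCTGA and TGACTCA, without overlap between them, and the windows of Col6a3 and Col6a2 held none of the 4 motifs. The G and C content was 57.2% for Col6a3, 56.0% for Col6a1 and 59.2% for Col6a2, against a median of 52.4% over all windows. RefSeq starts Col6a1 124 bases inside the gene as drawn in the GENCODE annotation, and lists more than 1 start for Col6a2, of which the one at the GENCODE gene start was used.

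Col6a3 was measured at 11.8, 13.3, 15.9 and 12.5 FPKM in untreated Ct mice and at 10.8, 13.03, 12.4 and 11.5 FPKM in CS-exposed mice. The highest library was Ct replicate 3, and the other libraries of both groups were interleaved. The mean was 13.4 ± 1.80 FPKM (SD, n = 4) in untreated Ct mice and 11.9 ± 0.998 FPKM (SD, n = 4) in CS-exposed mice. The log2 fold change was -0.16 (SE 0.10) with a 95% interval from -0.38 to 0.06, limma gave an unadjusted p = 0.139 and an adjusted p of 0.956 over 9794 genes, and a two-sided exact permutation test gave p = 0.2. The difference was therefore not larger than the spread between libraries. Without Ct replicate 3, in which most epithelium markers and all 6 type IV chains were highest, the log2 fold change was -0.07, closer to 0. Among the 9 lens epithelium markers the log2 fold changes ran from -0.47 to 0.03, and were -0.42 for Foxe3, -0.46 for Gja1 and -0.47 for Npnt, the last alone with an unadjusted p under 0.05 in limma, and the part of the epithelium markers in the difference was not tested. On the recovered reads limma-voom gave -0.16 with an unadjusted p under 0.05 but an adjusted p of 0.952. Among the 9794 tested genes Col6a3 stood at percentile 76.7 by mean FPKM, above the median gene at 4.68 FPKM.

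Col6a1 and Col6a2, the partner chains, were much lower than Col6a3 in all 8 libraries. Col6a1 was measured at 0.233, 0.506, 0.797 and 0.350 FPKM in untreated Ct mice and at 0.381, 0.201, 0.844 and 0.304 FPKM in CS-exposed mice. Col6a2 was measured at 0.328, 0.794, 1.11 and 0.563 FPKM in untreated Ct mice and at 0.453, 0.732, 0.516 and 0.518 FPKM in CS-exposed mice. Replicate 3 was the highest library for Col6a1 in both groups, and the groups overlapped for both genes. In the same library the level of Col6a3 was between 14.7 and 64.9 times that of Col6a1, and between 14.3 and 35.9 times that of Col6a2. Col6a2 exceeded Col6a1 in 7 of the 8 libraries, CS replicate 3 being the exception. The substitute chains were near the limit of detection, with 4 reads in all for Col6a4, 1 for Col6a5 and 13 for Col6a6 over the 8 libraries. The groups did not differ beyond the spread between libraries for Col6a1 (two-sided exact permutation test, p = 0.771) or Col6a2 (p = 0.514 in the same exact test). The Col6a3 locus overlaps Gm36970, a predicted gene on the same strand, so that reads in the overlap could belong to either, while Col6a1 and Col6a2 overlap no other gene.

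**Figure D2:**
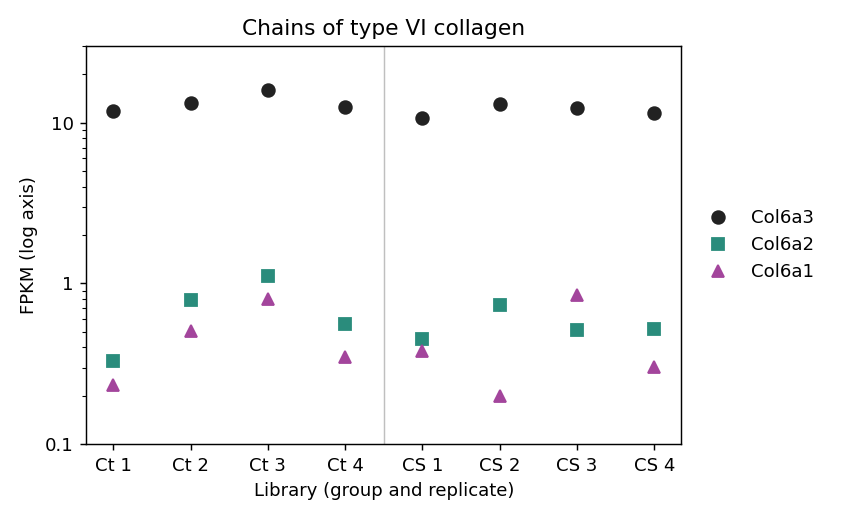
FPKM of Col6a3 (circles), Col6a2 (squares) and Col6a1 (triangles) in each of the 8 libraries, on a log axis. Col6a3 is at least 14.3 times either partner chain in every library.

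Col16a1 encodes the chain of type XVI collagen, which is found close to basement membranes and fibrils (chr4:130047840-130099283, plus strand). It was measured at 0.415, 1.33, 1.24 and 1.05 FPKM in untreated Ct mice and at 0.883, 0.715, 1.39 and 0.710 FPKM in CS-exposed mice. Ct replicate 1 was the lowest of the 8 libraries and CS replicate 3 the highest, and the groups overlapped in part. The means were 1.01 ± 0.413 FPKM (SD, n = 4) and 0.926 ± 0.323 FPKM (SD, n = 4), so that Col16a1 passed the 1 FPKM level through the untreated Ct group alone. The log2 fold change of -0.06 (SE 0.35) had a 95% interval from -0.83 to 0.72, with an adjusted p of 0.995 in limma and p = 0.914 in the two-sided exact permutation test. With 1 library left out in turn the value ran from -0.39 to 0.04, turning above 0 without CS replicate 2 and without CS replicate 4. Neither of the 2 collagens that could be tested at the 1 FPKM minimum thus had an unadjusted p under 0.05 in limma, where 4.83% of all 9794 genes did, and limma-voom called 1 of them, Col6a3, without adjustment.

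The fibrillar collagens were low. None of the 11 reached 1 FPKM, 6 of them had reads in all libraries, and their sum was between 1.47 and 1.61 FPKM in untreated Ct mice and between 1.55 and 1.98 FPKM in CS-exposed mice. The highest was Col11a2, a chain of type XI collagen from the core of cartilage fibrils. Col11a2 was measured at 0.624, 0.653, 0.626 and 0.786 FPKM in untreated Ct mice and at 0.909, 0.730, 0.814 and 0.856 FPKM in CS-exposed mice. The groups overlapped by 1 library, Ct replicate 4 being above CS replicate 2. The log2 fold change was 0.27 (SE 0.21) in the fit without a minimum, with limma p = 0.245, and the two-sided exact permutation test gave p = 0.0571, where 0.029 is the smallest p that 4 against 4 libraries allow. With eBayes without a trend the unadjusted p of Col11a2 was under 0.05, and its adjusted p was 0.888. Col27a1, a fibrillar chain of cartilage, was next, with 0.238, 0.472, 0.435 and 0.305 FPKM in untreated Ct mice and 0.591, 0.643, 0.525 and 0.206 FPKM in CS-exposed mice. In CS-exposed mice 3 libraries were above every untreated Ct library and CS replicate 4 was below all of them.

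The chains of the most common fibrils were close to 0. Over the 8 libraries together, Col1a1 had 21 reads, Col1a2 had 69, Col3a1 had 13 and Col5a2 had 9. Col3a1, a chain of vessel walls and stroma, was listed at 0 in all 4 untreated Ct libraries and had reads in 3 of the CS-exposed libraries, with a highest value of 0.0613 FPKM. Col2a1, the main fibrillar chain of vitreous and cartilage, lay between 0.0394 and 0.179 FPKM and Col5a1 between 0.113 and 0.249 FPKM, with overlapping groups.

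Col5a3 was named after its values were seen, since it was the only one of the 38 collagens in which the groups did not overlap. The gene encodes the alpha 3 chain of type V collagen, which joins fibrils of type I collagen, and lies at chr9:20770050-20815067 on the minus strand. Col5a3 was measured at 0.230, 0.132, 0.211 and 0.0723 FPKM in untreated Ct mice and at 0.0310, 0.00708, 0.0239 and 0.0302 FPKM in CS-exposed mice. Every CS-exposed library was below every untreated Ct library. These values rest on 28, 16, 30 and 8 reads in untreated Ct mice and on 4, 1, 3 and 4 reads in CS-exposed mice. The pooled reads, 12 against 82, gave a ratio of 0.137 after scaling for depth, with an exact 95% interval from 0.0681 to 0.253 that covers counting error only. In the fit without a minimum the log2 fold change was -1.05 (SE 0.27). Limma gave p = 0.00349 with an adjusted p of 0.906 over 21019 genes, and the two-sided exact permutation test gave p = 0.0286. By the adjusted value in limma, Col5a3 failed the correction for multiple tests. The permutation value is the smallest that test can give. It follows from groups that do not overlap, for which Col5a3 was picked, so it adds no evidence. The adjusted p ran from 0.772 to 0.945 over the alternatives. The value on the log2 scale depends on the pseudocount, and was -2.68 by limma-voom on the reads. A count of 1 among the 36 collagens with reads stands beside 4.1% of all 21019 genes with an unadjusted p under 0.05 in this fit, 2.26% whose groups did not overlap, and 1.08% whose groups did not overlap with lower values in CS-exposed mice. No gene passed adjustment in this fit. Col5a3 overlaps the gene Gm26274 on the other strand, and with a library kit that does not mark the strand their reads cannot be told apart where they overlap.

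**Figure D3:**
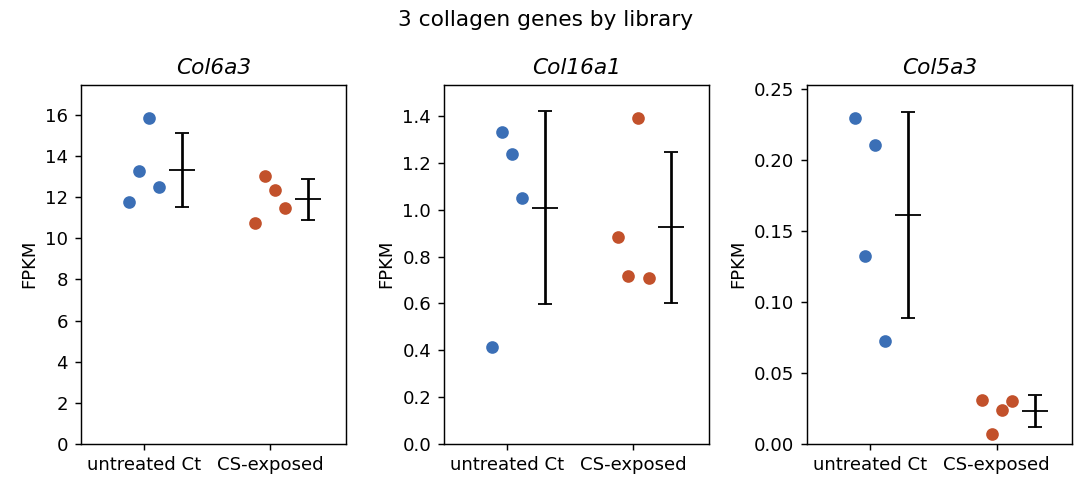
FPKM of Col6a3, Col16a1 and Col5a3 by library (points) in untreated Ct (blue) and CS-exposed mice (orange), with the mean and SD (n = 4) beside each group; each axis starts at 0 and has its own range. The groups overlap for Col6a3 and Col16a1 and are separate for Col5a3, which stays under 0.24 FPKM.

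Among the 9 FACIT collagens, Col20a1 followed Col16a1. Col20a1 was measured at 0.3001, 0.314, 0.298 and 0.449 FPKM in untreated Ct mice and at 0.464, 0.217, 0.582 and 0.684 FPKM in CS-exposed mice. In CS-exposed mice 3 libraries exceeded every untreated Ct library and CS replicate 2 was the lowest of all 8, and the two-sided exact permutation test gave p = 0.314. Col9a3, a chain of type IX collagen from the surface of type II fibrils, ranged from 0.0660 to 0.297 FPKM in untreated Ct mice and from 0.0156 to 0.544 FPKM in CS-exposed mice. Its highest library was CS replicate 3, and its value rests on at most 34 reads. Its partner Col9a1 reached at most 0.181 FPKM, and Col9a2 had 11 reads, all in Ct replicate 4. Col9a3 overlaps Tcfl5 on the other strand. Col22a1 was listed at 0 in every library, where a count of 0 allows up to 3 reads, or 0.0188 FPKM in the shallowest library.

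Of the short-chain network collagens, Col8a2, a chain of Descemet's membrane under the corneal endothelium, ranged from 0.228 to 0.386 FPKM in untreated Ct mice. Col8a2 was measured at 0.252, 0.270, 0.641 and 0.203 FPKM in CS-exposed mice, so that CS replicate 3 stood apart. Its partner Col8a1 was also highest in CS replicate 3, at 0.267 FPKM, and stayed at or under 0.0866 FPKM in the other libraries. The rod photoreceptor markers were highest in the same library, and their part in these values was not tested. Col10a1 had 7 reads, all in untreated Ct mice.

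Col23a1, a transmembrane collagen, ranged from 0.464 to 0.948 FPKM in untreated Ct mice and from 0.586 to 1.03 FPKM in CS-exposed mice, with p = 0.457 in the two-sided exact permutation test. Of the other transmembrane collagens, Col17a1, which anchors epithelia in hemidesmosomes, had its highest value of 0.178 FPKM in CS replicate 2, and Col13a1 and Col25a1 stayed under 0.12 FPKM. Col7a1, the chain of the anchoring fibrils, was even across libraries, from 0.315 to 0.472 FPKM in untreated Ct mice and from 0.346 to 0.527 FPKM in CS-exposed mice.

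Col18a1, a collagen of basement membranes that gives rise to endostatin, was measured at 0.103, 0.160, 0.136 and 0.471 FPKM in untreated Ct mice and at 0.0823, 0.00683, 0.1999 and 0.459 FPKM in CS-exposed mice. Replicate 4 was the highest library in both groups. The 7 pigmented cell markers summed to between 0.536 and 2.72 FPKM in untreated Ct mice and between 1.29 and 6.81 FPKM in CS-exposed mice, and replicate 4 held the highest sum in both groups. Of the 7, Tyr, Tyrp1, Dct and Mlana were highest in replicate 4 of both groups. Dct, an enzyme of pigment synthesis, was at 1.47 and 3.52 FPKM in these 2 libraries, and Mlana was at 0.532 and 0.965 FPKM in them and at 0 in the other 6. Pmel, a pigment granule protein, was highest in replicate 4 of the CS-exposed group alone, at 1.26 FPKM. Rpe65, a pigment epithelium gene, was between 0.0314 and 0.188 FPKM in untreated Ct mice and between 0.289 and 3.31 FPKM in CS-exposed mice. Alone of the 7, it had groups that did not overlap. The log2 fold change was 2.34, with an adjusted p of 0.956 in limma and p = 0.0286 in the two-sided exact permutation test. Rpe65 was highest in CS replicate 3, and Best1 was at 0 throughout. The part of the pigmented cell markers in the Col18a1 values was not tested. The second multiplexin, Col15a1, had 11 reads in 2 libraries, and Col18a1 overlaps Slc19a1 on the other strand.

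The 10 collagens between 0.2 and 1 FPKM followed Col16a1 in the order Col23a1, Col11a2, Col6a2, Col6a1, Col27a1, Col20a1, Col7a1, Col8a2, Col9a3 and Col18a1 by mean FPKM over all libraries. The ranges over libraries of each pair of neighbours in that order overlapped, from Col16a1 onward, while Col6a3 and Col16a1 did not overlap. None of the 10 had an unadjusted p under 0.05 in the limma fit without a minimum, where 4.1% of all 21019 genes had one. In the alternatives Col11a2 alone of the 10 had one, with eBayes without a trend. Over the 36 collagens with reads the median log2 fold change was 0.02, with 19 above 0 and 17 below, beside a median of -0.01 over all 21019 genes. The 24 collagens under 0.2 FPKM that had reads held 1 to 235 reads in total over the 8 libraries, and 16 of them fewer than 25. Col28a1 was listed at 0 throughout, which allows up to 0.0392 FPKM in the shallowest library.

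**Figure D4:**
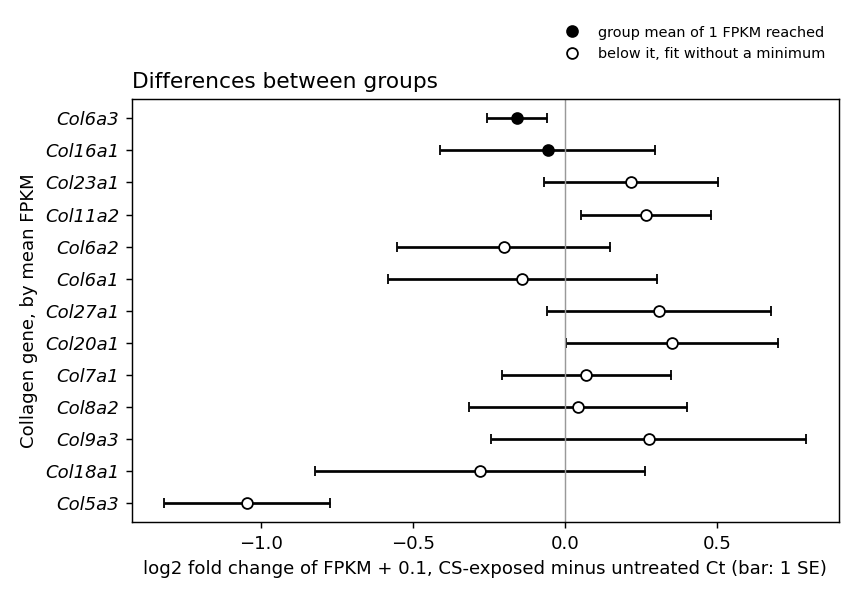
Log2 fold change of FPKM + 0.1 between CS-exposed and untreated Ct mice, with a bar of 1 SE, for the 12 collagens with a group mean of at least 0.2 FPKM and Col5a3. Filled points were tested at the minimum of 1 FPKM and open points in the fit without a minimum. The bars of Col6a3, Col11a2, Col20a1 and Col5a3 lie to one side of 0, and Col5a3 is farthest from 0 at -1.05.

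The genes that make, carry, bind and break down collagen were taken as 5 lists of 71 genes, of which 29 reached the 1 FPKM minimum. In limma, 1 of the 29 had an unadjusted p under 0.05, with a higher level in CS-exposed mice, and none was lower, where 2.75% of all tested genes were higher and 2.08% lower. None passed after adjustment, as against 0.0102% of all tested genes. The median log2 fold change of the 29 genes was 0.05, beside 0.00 over all 9794 genes tested.

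The gene that passed was Plod1, a lysyl hydroxylase that prepares collagen for crosslinking. Plod1 was measured at 5.89, 6.53, 5.11 and 6.97 FPKM in untreated Ct mice and at 7.36, 7.74, 6.69 and 7.06 FPKM in CS-exposed mice. The groups overlapped, since Ct replicate 4 was above CS replicate 3. The log2 fold change was 0.24 (SE 0.10), with limma p = 0.0415, an adjusted p of 0.956 and p = 0.0571 in the two-sided exact permutation test. Over the alternatives the value ran from 0.16 to 0.30 and the unadjusted p from 0.0157 to 0.129, and p was over 0.05 without Ct replicate 1, Ct replicate 3, CS replicate 1, CS replicate 2 or CS replicate 4. It was also over 0.05 with centring on the median, quantile normalization and eBayes without a trend, where the log2 fold change stayed between 0.23 and 0.24. The adjusted p ran from 0.886 to 1.0.

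The machinery of chain hydroxylation and folding was expressed well above the fibrillar collagens themselves, with 15 of its 19 genes at or over the minimum. P4ha1, the catalytic chain of a prolyl hydroxylase, was at 73.6 FPKM in untreated Ct mice and 77.5 FPKM in CS-exposed mice on average. Serpinh1, the collagen chaperone HSP47, was at 37.9 and 39.6 FPKM. P4ha3, another prolyl hydroxylase chain, was listed at 0 in every library.

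Of the 16 genes of procollagen export, propeptide cleavage and crosslinking, 6 reached the minimum. Bmp1, which cleaves the C-propeptides of fibrillar collagens, was at 14.7 FPKM in untreated Ct mice and 13.8 FPKM in CS-exposed mice. Ctage5, an export factor for large cargo, was at 5.86 and 6.13 FPKM. The N-propeptidases of fibrillar collagens, Adamts2, Adamts3 and Adamts14, stayed at or under 0.0610 FPKM, and Lox, the lysyl oxidase, had reads in 2 untreated Ct libraries alone.

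Among the 13 collagen receptors, 3 reached the minimum. Itgb1, the shared beta chain of the collagen-binding integrins, was at 37.5 and 38.8 FPKM and Ddr1, a receptor tyrosine kinase for collagen, at 13.7 FPKM in untreated Ct mice and 13.6 FPKM in CS-exposed mice. The alpha chains that pair with Itgb1 to bind collagen were low, the highest being Itga2 at between 0.197 and 0.748 FPKM. Gp6, the platelet receptor, was listed at 0.

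In the list of 11 genes of collagen breakdown, only the protease inhibitors Timp2 and Timp3 reached the minimum. Timp2 was at 49.5 and 49.2 FPKM and Timp3 at 29.8 and 30.5 FPKM, while the 5 matrix metalloproteinases stayed at or under 0.314 FPKM in any library. Of the 12 collagen-binding proteoglycans and partners, 3 reached the minimum. Sparc, which binds collagen in basement membranes, was at 315 and 310 FPKM on average, and Ogn, a small leucine-rich proteoglycan, was at 78.5 and 84.0 FPKM. Of the 29 pathway genes at or over the minimum, Plod1 alone had an unadjusted p under 0.05 in limma, and the other 42 were not tested there. In the fit without a minimum 3 of 68 pathway genes had one, 1 higher and 2 lower in CS-exposed mice. In that fit 4.1% of all 21019 genes had one.

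**Figure D5:**
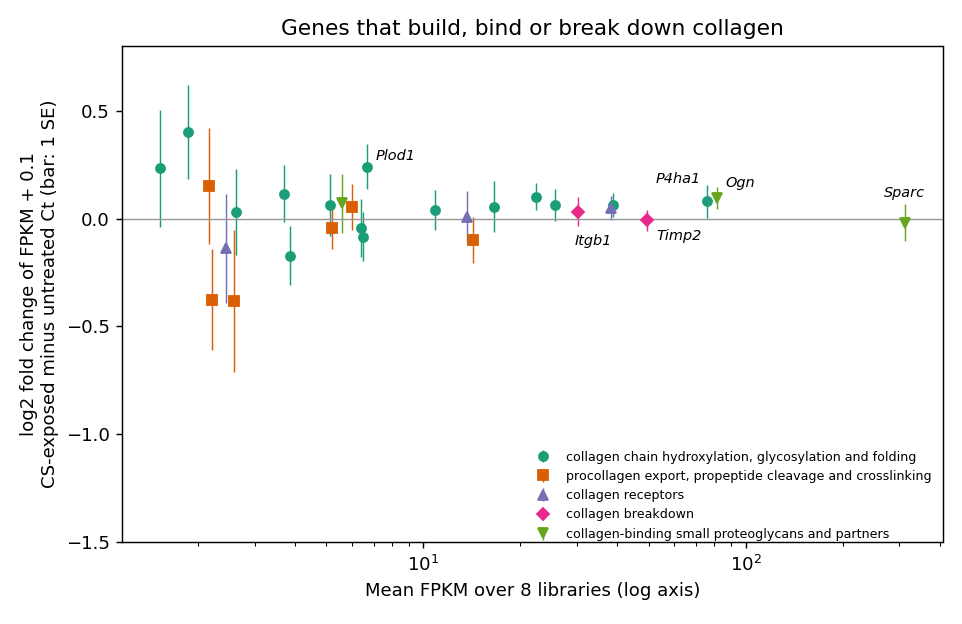
Log2 fold change of FPKM + 0.1 between CS-exposed and untreated Ct mice, with a bar of 1 SE, against mean FPKM over 8 libraries (log axis), for the 29 collagen pathway genes at or over the minimum, with a symbol and color for each list. All lie between -0.38 and 0.40, Plod1 at 0.24 is the one with an unadjusted p under 0.05, and the most abundant genes, Sparc, Ogn and P4ha1, lie within 0.1 of 0.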

How the data were processed

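RNA of 4 CS-exposed and 4 untreated Ct pools of lens FC was sequenced. Paired reads of 150 bases were aligned to GRCm38 (STAR 2.5) and counted (HTSeq 0.6.1) by the authors, who deposited the values of each library as FPKM. The annotation release is not given in the sources used here. The deposited group means, DESeq2 log2 fold changes and p-values of the authors were not used.

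Genes whose mean reached 1 FPKM in a group were compared on log2(FPKM + 0.1) by limma 3.58.1 in R 4.3.3 (trended eBayes, two-sided, Benjamini-Hochberg over all tested genes). This scale makes the change of low genes look smaller. Collagens below that level were fitted without a minimum, leaving out genes at 0 in every library. Pools are of different mice, and p-values measure the spread between pools. Whole reads were recovered from the FPKM steps, within 0.02 of a read, for 99.8% of tested genes (GENCODE lengths, GRCm38), and limma-voom was run on them as an alternative. It called 482 genes at an unadjusted p under 0.05 and 2 after adjustment, where the test of FPKM called 473 and 1. Only the fit at the 1 FPKM minimum was tried on simulated data, and the outcome is not given here. The fit without a minimum and limma-voom were not tried in this way.

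Named were all collagens of at least 1 FPKM in a group mean in full, those of at least 0.2 FPKM by values, and of each pathway list the 2 genes highest by mean FPKM and any with an unadjusted p under 0.05. Genes outside this rule, among them Col5a3, were named after their values were seen. The members and lists were chosen with earlier results of these data known. Python 3.11.15 with scipy 1.17.1, pandas 2.3.3 and numpy 2.4.6 was used for the rest, and matplotlib 3.10.9 for plots. Alternatives were other pseudocounts, minima and scalings, eBayes variants, a replicate block, limma-voom and leaving out each library. Intervals and limits from counts of 0 cover counting error only.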

Additional observations from a re-analysis of the deposited data

Results flagged for a closer look

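In 32 groups of 4 libraries (the 12 collagens with a group mean of at least 0.2 FPKM, Col5a3, their sum and 2 ratios of type VI chains), 3 had a library far from the other 3 of its group by Dixon's test, which flags about 1 in 20 groups by chance. Col18a1 in Ct replicate 4 was at 0.471 FPKM, and the other untreated Ct libraries were between 0.103 and 0.160 FPKM. Col8a2 in CS replicate 3 was at 0.641 FPKM, and the other CS-exposed libraries were between 0.203 and 0.270 FPKM. Col20a1 in Ct replicate 4 was at 0.449 FPKM, and the other untreated Ct libraries were between 0.298 and 0.314 FPKM.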

How the results depend on the processing

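The 473 genes with an unadjusted limma p under 0.05 became 862 with no minimum level and 226 with a minimum of 5 FPKM, and ran from 418 to 525 with 1 library left out in turn. Of the 2 testable collagens 0 passed, in the leave-one-out fits too. This became 1 with limma-voom (Col6a3, log2 fold change -0.163) and 1 without a minimum (Col5a3, 36 collagens then being tested). The direction of Col6a3 was kept in all alternatives run, from -0.217 to -0.0726 with 1 library left out. Col16a1 ran from -0.392 to 0.0401 over the leave-one-out fits and could not be tested without Ct replicate 2, 3 or 4 or at a minimum of 5 FPKM, where its mean is below the minimum. The cause of these changes was not tested.

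The 1 pathway gene of 29 became 0 with centring on the median, with quantile normalization and with eBayes without a trend, 2 with limma-voom, 2 with a minimum of 0.5 FPKM, 3 with no minimum, and 0 to 3 with 1 library left out. The collagens reaching a group mean of 1 FPKM were 2, and were 5 at 0.5 FPKM, 1 at 2 FPKM and 1 to 2 with 1 library left out, the count being 1 without Ct replicate 2, 3 or 4. Directions turned in leave-one-out fits for Col6a1 (-0.461 to 0.108), Col6a2 (-0.469 to 0.0319), Col7a1 (-0.0292 to 0.147), Col8a2 (-0.239 to 0.191), Col9a3 (-0.0943 to 0.732) and Col18a1 (-0.689 to 0.107).

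Libraries with the same replicate number come from different mice, and the correlations of their deviations from the group means were 0.012, 0.0777, 0.111 and 0.161, so that the numbers were not taken as pairs, and 3 of the 4 untreated Ct libraries correlated best with their own number. With the replicate block, limma called 522 genes at an unadjusted p under 0.05 and 2 pathway genes, and neither Col6a3 nor Col16a1. Depth limits the collagens under 0.2 FPKM, most of which rest on fewer than 25 reads in all.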

Other observations

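Of the 16 genes of procollagen export, propeptide cleavage and crosslinking, 7 had their highest value in Ct replicate 3, the library with the highest value of 7 of the 9 lens epithelium markers and of all 6 type IV chains. Among them Pcolce, an enhancer of the C-proteinase, was at 4.50 FPKM there and between 1.57 and 3.86 FPKM in the other 7 libraries. Loxl1, a lysyl oxidase-like enzyme, was at 3.72 FPKM there and between 1.33 and 2.44 FPKM elsewhere. Loxl2, of the same family, was at 3.45 FPKM there and between 1.22 and 2.68 FPKM elsewhere. These genes were picked after their values were seen, and the part of the epithelium markers was not tested.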
